A study of Mus musculus with 6 samples.

Results

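The genes described here are 7 genes of retinoic acid handling and sensing, followed through the brain vessel cells of 6 mice: Cyp26b1, Rbp7, Stra6, Rara, Rarb, Rarg and Rxra. They were taken by gene symbol, and each symbol matched 1 of the 32287 genes counted, so these are 7 members of 32287. The members were chosen with their levels in fenestrated and barrier endothelial cells and in the vessel zones already known, so the differences between cell classes below are a description and were not tested. Only the difference between genotypes was tested. Earlier results of these data were known when the members were chosen, so this was not an independent test of them.

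Retinol travels in blood bound to carrier proteins, enters cells that carry the membrane receptor STRA6, and is oxidised in successive steps to retinoic acid. Retinoic acid binds nuclear receptors of the RAR family, which sit on DNA as pairs with RXR partners, and cells that must be kept free of it, or in which its dose must be limited, break it down with enzymes of the CYP26 family. In the brain, endothelial cells with a blood-brain barrier form the great majority of vessels, whereas the vessels of the choroid plexus and the circumventricular organs are fenestrated and let blood solutes pass.

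The mice were 12-month-old males, untreated, 3 wild-type animals of the C57BL/6J strain (WT) and 3 animals of the transgenic Alzheimer model tg App ArcSwe (ArcSwe), which carries a human amyloid precursor protein with the Arctic and Swedish mutations and, per the study's methods, holds amyloid both in plaques and in vessel walls at this age. The promoter of the transgene is not given in the sources used here, and the counts hold a mouse App row only, so the transgene was not measured on its own. Each library came from the cerebrum of 1 hemisphere of 1 mouse, from vessel fragments captured with beads against the endothelial protein CD31 and split into single cells. Replicate numbers name animals and mark no shared litter or day in the labels.

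The libraries held 26436229 to 59161203 UMIs (molecules counted by a random tag) over 2907 to 14928 cell barcodes, and 44112 of 49059 barcodes passed the filters on cells. Of these, 616 cells were fenestrated endothelial (60 to 158 per mouse) and 24136 were barrier endothelial (1606 to 6345 per mouse), the latter split into large arterial, arterial, capillary and venous zones. The classes were named from marker lists that include Plvap and Cldn5, so the levels of these genes describe the classes and are no check on them. Plvap, the diaphragm protein of fenestrae, averaged 2285 counts per 1000000 UMIs of the class (CPM) in fenestrated and 1.20 CPM in barrier cells, and the tight junction gene Cldn5 averaged 272 CPM in fenestrated and 5310 CPM in barrier cells. Level below always means CPM of the UMIs summed per mouse and class. The libraries did not stand alike: 2 of the 8 capillary clusters came for over 75% of their cells from ArcSwe 3, whose cells were also the shallowest (median 2922 UMIs per cell), and ArcSwe 2 had the fewest cells (2379). Cell barcodes shared by libraries numbered 235, or 0.536% of those kept.

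Cyp26b1 encodes an enzyme that breaks down retinoic acid and lies at chr6:84571414-84593908 on the minus strand of mm10. Rarb encodes a retinoic acid receptor whose gene lies at chr14:16430839-16819156, also on the minus strand. As background, retinoic acid receptors bind the hexamer AGGTCA and near forms of it, often as 2 copies in the same orientation spaced by 1, 2 or 5 bases, and Rarb is a textbook target. The forms searched beside AGGTCA were first AGTTCA, next GGGTCA, and last the form written GGTTCA. Because Rarb and Cyp26b1 were both higher in fenestrated cells, the 200 bases before a RefSeq start site of each are shown (GRCm38.p6, minus strand, written 5′ to 3′ as transcribed), with the hexamers in capitals.
Rarb, chr14:16575477-16575676: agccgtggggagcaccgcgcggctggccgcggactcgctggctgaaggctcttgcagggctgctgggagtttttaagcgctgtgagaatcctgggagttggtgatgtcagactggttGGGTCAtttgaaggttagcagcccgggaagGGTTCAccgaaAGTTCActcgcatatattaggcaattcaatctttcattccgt
Cyp26b1, chr6:84593811-84594010: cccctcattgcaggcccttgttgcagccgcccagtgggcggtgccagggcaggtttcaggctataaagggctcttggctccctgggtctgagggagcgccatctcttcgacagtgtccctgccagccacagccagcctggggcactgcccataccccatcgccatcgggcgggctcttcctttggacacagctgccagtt

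The Rarb stretch held 3 such hexamers, searched on both strands, and the last pair, GGTTCA followed by the form AGTTCA, formed a repeat spaced by 5 bases from position -53 to -37 relative to the start site. Of 32851 RefSeq promoter windows of 300 bases, 32 (0.0974%) held a repeat spaced by 5, 0.222% held 1 spaced by 1, 0.268% held 1 spaced by 2 and 43.7% held at least 1 hexamer. The Cyp26b1 stretch held 0 of these hexamers. A match to letters is a description of the sequence, and the absence of a match covers only this window.

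Cyp26b1 was highest in fenestrated endothelium, with a mean of 101 ± 85.5 CPM (SD, n = 6 mice) against 9.17 ± 6.23 CPM in barrier cells. The mouse levels in fenestrated cells were 139, 93.9 and 253 CPM in WT and 14.8, 56.9 and 50.8 CPM in ArcSwe, and those in barrier cells were 10.8, 8.32 and 20.7 CPM in WT and 3.12, 6.69 and 5.32 CPM in ArcSwe. Every mouse held more in its fenestrated than in its barrier cells, and the mean log2 ratio, on the log2(CPM + 1) scale used for all ratios of classes, was 3.06 ± 0.61 (SD). ArcSwe 1, the lowest mouse, had less Cyp26b1 in fenestrated cells than WT 3 had in barrier cells. These sums rest on 13 to 124 UMIs per mouse in fenestrated cells.

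Along the barrier vessels Cyp26b1 was unevenly spread. The venous zone came next after fenestrated cells with 27.3 CPM (range 10.1 to 44.0), followed by arterial with 10.1 CPM (2.32 to 21.9), large arterial with 7.82 CPM (3.60 to 17.2) and capillary endothelium with 7.67 CPM (2.54 to 18.04). No 2 neighbours in this order had ranges that stood apart. Outside endothelium the class means were at most 3.32 CPM, in B cells, and microglia were at 0.985 CPM.

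Counted by cells, 28.2% of fenestrated cells held at least 1 Cyp26b1 UMI (mean of 6 mice). Depth per cell differs between classes, so each cell was also thinned to 1000 UMIs, which left out 12 fenestrated and 653 barrier cells. The thinned share was 7.87% ± 5.88 (SD) in fenestrated cells, 2.42% in venous cells and 0.703% in barrier cells as a whole. Microglia, which should lack the gene, gave 0.0415% thinned and 0.106% unthinned, with a median of 1572 UMIs per cell.

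Rbp7, a small intracellular retinol-binding protein at chr4:149449687-149454978, separated the fenestrated cells more sharply than any other member. Its level in fenestrated cells was 770, 1076 and 555 CPM in WT and 755, 603 and 733 CPM in ArcSwe, and in barrier cells it was at most 0.747 CPM in any mouse. The ranges stood far apart, and the mean levels of 749 ± 182 and 0.369 ± 0.291 CPM (SD, n = 6) gave a ratio of means of 2029. No other named class had a mean above 1.28 CPM. Venous cells and T or NK cells held 0 Rbp7 UMIs in every mouse, which at 3 UMIs per library allows up to 1.96 to 8.25 CPM in venous cells.

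By cells, Rbp7 was found in 65.3% of fenestrated cells and in 35.9% after thinning to 1000 UMIs. The same shares in barrier cells were 0.134% and 0.0437%. Between mice the thinned share in fenestrated cells ran only from 32.5% to 42.5%, whereas that of Cyp26b1 ran from 0.649% to 18.4%.

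Stra6 ran the other way. This gene at chr9:58063788-58153996 encodes the membrane receptor that takes up retinol from its plasma carrier, and it was a gene of barrier vessels. Barrier levels were 87.7, 78.3 and 83.1 CPM in WT and 74.0, 103 and 52.4 CPM in ArcSwe, against 5.26, 4.62 and 8.17 CPM and 5.70, 0 and 6.35 CPM in the fenestrated cells of the same mice. The groups did not overlap, the ratio of the barrier to the fenestrated mean was 15.9, and the mean log2 ratio of fenestrated over barrier was -3.98 ± 1.38 (SD). The wide SD came from ArcSwe 2, which held 0 UMIs in its 60 fenestrated cells, a count that allows up to 6.09 CPM, so the ratio of that mouse depends on the pseudocount.

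Stra6 also fell into an order along the vessel tree, from capillary (91.1 CPM, range 59.5 to 114) through arterial (63.8, 43.0 to 92.5) and large arterial (37.3, 26.2 to 49.7) to venous endothelium (11.7, 2.89 to 21.6). Adjacent zones overlapped, but the venous range lay below those of all 3 other barrier zones. Pericytes had 23.2 CPM and smooth muscle 4.64 CPM. The pericyte cluster carried endothelial markers, with a score of 0.36 for these against 0.25 for the B cell cluster. The part of endothelial RNA in the pericyte level was not tested. B cells had 32.5 CPM of Stra6 beside 1026 CPM of Cldn5, while capillary cells had 91.1 and 5623 CPM, so endothelial RNA was present in the B cell sums, and its part in their Stra6 level was not tested. After thinning to 1000 UMIs, 8.23% of capillary, 0.412% of fenestrated and 0.615% of microglial cells held a Stra6 UMI, so the fenestrated share was no higher than the background share in microglia.

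**Figure D1:**
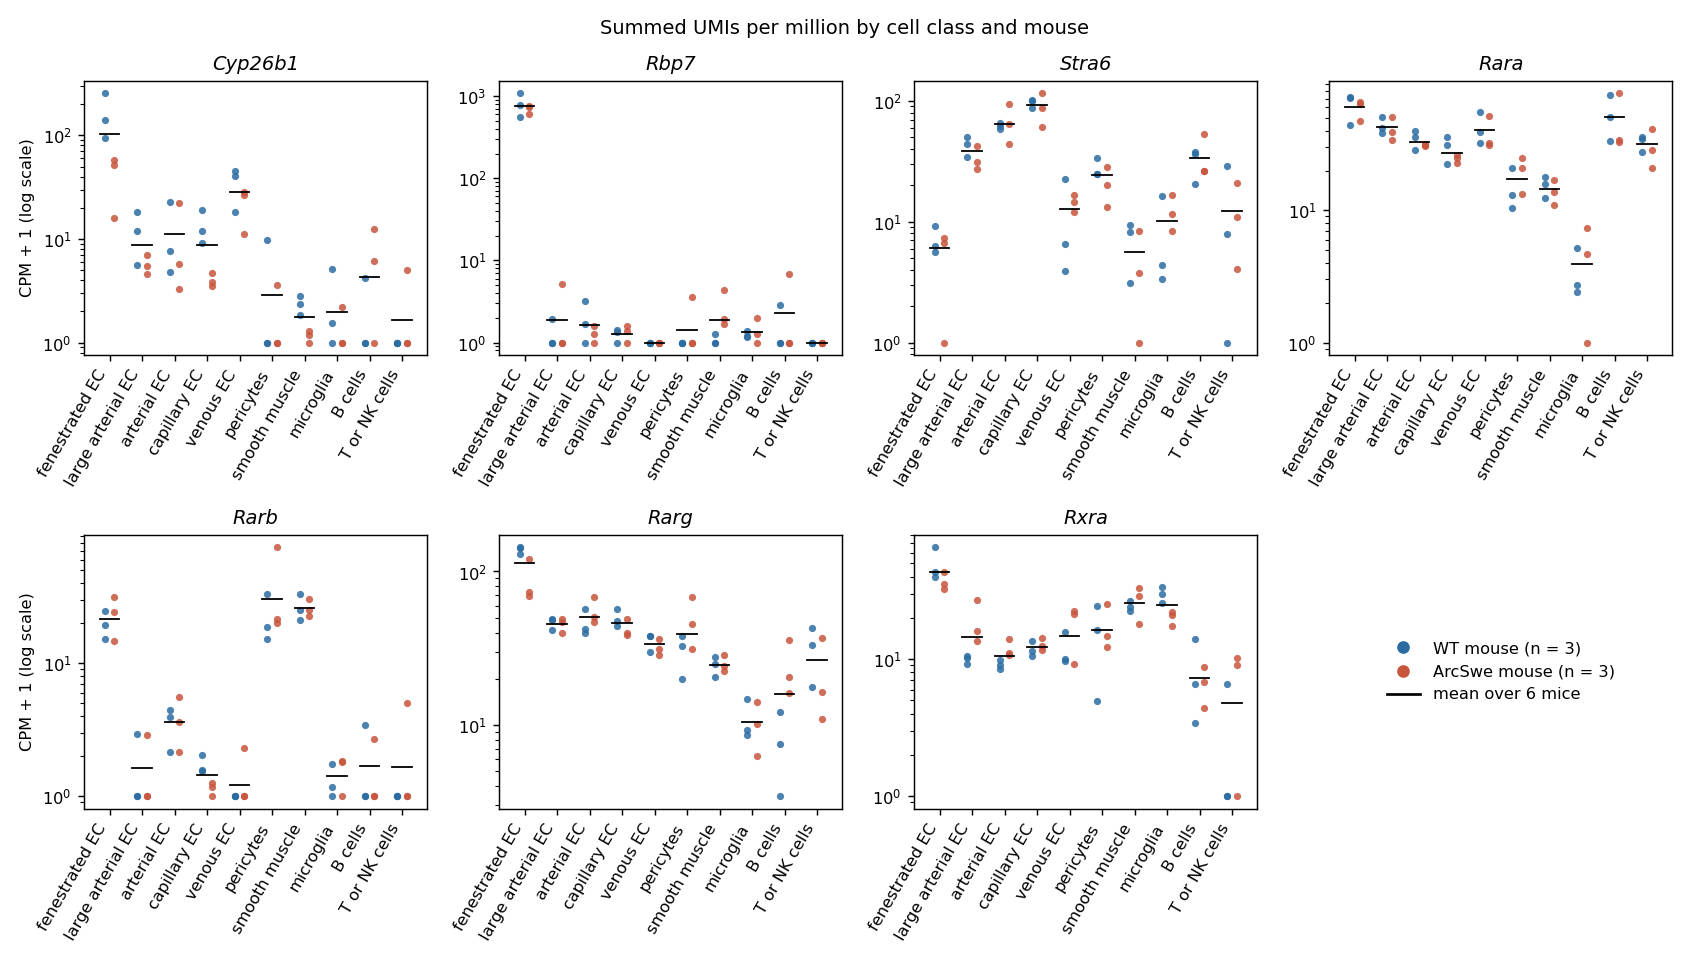
Level of each member (CPM + 1 on a log axis) in the 10 named cell classes (EC, endothelial cells). Each point is 1 mouse, blue for WT and red for ArcSwe, and the line marks the mean of the 6 mice. Rbp7 points of fenestrated cells lie between 555 and 1076 CPM while every other class is near 0, Stra6 is highest in capillary cells, and Rarb is high in pericytes, smooth muscle and fenestrated cells.

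The nuclear receptors were the third group, and all 4 receptor members were higher in fenestrated than in barrier cells of every mouse. Rarb, at 20.6 CPM (13.7 to 30.5) in fenestrated and 0.787 CPM (0.434 to 1.41) in barrier cells, had the largest log2 ratio of them, 3.56 ± 0.56. Rarg, a RAR best known from skin and cartilage, had 112 CPM (67.8 to 143) against 45.1 CPM (38.3 to 54.5), a log2 ratio of 1.25 ± 0.37. Rxra, the shared partner of the RARs, had 42.3 CPM (31.8 to 64.6) against 11.4 CPM (9.45 to 13.7), a log2 ratio of 1.78 ± 0.50.

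Rara, the most widely expressed RAR, had the smallest ratio. Its levels were 59.6 CPM (42.9 to 71.0) in fenestrated and 28.8 CPM (24.2 to 36.7) in barrier cells. The mean log2 ratio of 1.01 ± 0.17 lies just inside the limit of 1 used to count a gene as different, and it was under 1 in 5 of 14 alternatives, at 0.91 as a mean over cells, 0.998 without the 2 capillary clusters mostly of ArcSwe 3, 0.99 without WT 1, 0.995 without ArcSwe 1 and 0.97 without ArcSwe 2. Of the list genes at 10 CPM with 1 sign in all mice, the nearest under the limit were Dhrs4, a retinal reductase, at -0.71 and the co-regulator Nrip1 at 0.51. Fabp5, a carrier of fatty acids and retinoic acid, had a mean of 1.80 but did not share its sign in all mice.

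Across cell classes the receptors differed in where else they appeared. Rarb was a gene of mural cells as much as of fenestrated endothelium, with 29.4 CPM in pericytes (14.2 to 73.4) and 25.1 CPM in smooth muscle (19.9 to 32.1), ranges that overlapped that of fenestrated cells and lay apart from arterial cells at 2.64 CPM (1.15 to 4.53) and all classes below. Rarg was highest in fenestrated cells with a range that just cleared arterial cells (67.8 against 67.3 CPM at the nearest mice). Rxra followed fenestrated cells with smooth muscle at 24.6 CPM and microglia at 23.9 CPM, and neither range stood apart from its neighbour's.

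Rara was spread over B cells (49.3 CPM), large arterial (41.6), venous (39.4), arterial (32.1), T or NK (30.5) and capillary cells (26.2). Only microglia, at 2.90 CPM (0 to 6.35), had a range apart from the class next to it in the order. Counted over the barrier zones, the fenestrated range lay above that of each of the 4 zones for 4 members, Rbp7, Rarb, Rarg and Rxra, and overlapped a zone for Cyp26b1 and Rara. This count was 3 to 5 under other settings. The share of all genes with such ranges was not counted, and the members were chosen with these levels known. Nothing is therefore read from this count.

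**Figure D2:**
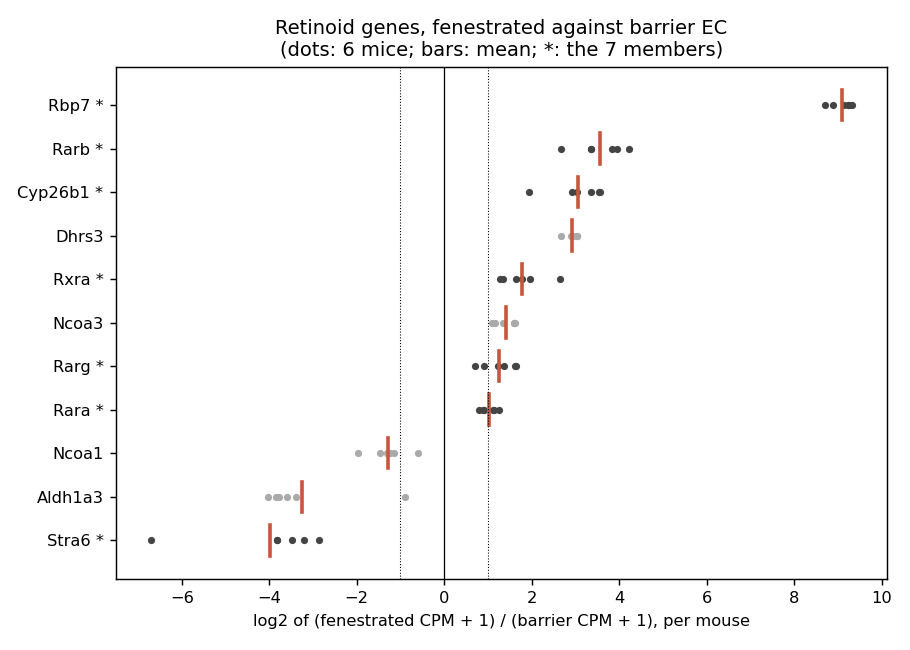
Log2 ratio of fenestrated over barrier level (CPM + 1) for the 11 list genes that met the rule for a difference, with 1 point per mouse, a bar at the mean, an asterisk on the members and dotted lines at a ratio of 1 in either direction. The members other than Stra6 lie above 0 in all 6 mice, with Rbp7 at 9.09 and Rara at 1.01, and Stra6 lies below 0 at -3.98.

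The other genes of the pathway were read from a list of 46 genes that includes the members. A gene counted as different where its mean log2 ratio was at least 1 in size, all 6 mice shared the sign and the higher class reached 10 CPM. Of 9161 genes that reached this level, 692 were higher (7.55%) and 777 lower (8.48%) in fenestrated cells, with a median log2 ratio of -0.07. Of the 24 list genes at this level, 8 were higher and 3 lower with a median of 0.06. Since the 7 members were chosen on this contrast and make up 6 of the 8 and 1 of the 3, nothing is read from these counts.

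Beyond the members, 4 genes of the list met the rule. Dhrs3, a reductase that turns retinaldehyde back to retinol, had 179 CPM in fenestrated and 22.8 CPM in barrier cells (log2 ratio 2.92), the highest level of any class, ahead of microglia at 86.9 CPM. The co-activator Ncoa3 was higher in fenestrated cells (201 against 74.7 CPM) and the co-activator Ncoa1 lower (99.1 against 234 CPM). Aldh1a3, a retinaldehyde dehydrogenase that makes retinoic acid, had 12.5 ± 2.00 CPM in barrier and 1.06 ± 2.59 CPM in fenestrated cells (SD). Its log2 ratio was -3.26, with mice from -4.04 to -0.89. The fenestrated level was near 0, so this ratio depends on the pseudocount.

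By role, 5 of 10 carriers and uptake genes reached 10 CPM in either class, and Rbp7 and Stra6 were the ones that differed. Of 18 genes listed under synthesis 6 did, with Dhrs3 higher and Aldh1a3 lower, while Rdh10, Rdh11, Rdh14 and Dhrs4 did not meet the rule. This group holds the reductases Dhrs3 and Dhrs4, which act in the reverse direction, so it is no measure of synthesis. Cyp26b1 was the 1 of 3 degradation genes at this level. Of 6 receptors 5 were, and Rxrb was the one that did not differ. All 6 co-regulators were at this level, and those other than Ncoa3 and Ncoa1 did not meet the rule. Of 12 known targets of retinoic acid, some of which also stand in other groups, 7 were at this level. Dhrs3, Cyp26b1 and Rarb were higher and Stra6 lower in fenestrated cells, and the others did not meet the rule.

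Zonation touched other list genes too. Adh1, an alcohol dehydrogenase, had its highest class mean in venous cells (33.0 CPM, 15.9 to 55.0, against 5.70 CPM in large arterial cells), as did Tgm2, a transglutaminase and retinoic acid target (479 CPM in venous, 157 CPM in fenestrated cells). Rdh10, which oxidises retinol, and Rdh5 were highest in pericytes, at 23.0 and 40.8 CPM.

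Genes whose class means followed those of 3 members were ranked by Pearson correlation of log2(CPM + 1) over 10 classes among 11790 genes. The class means come from the same libraries, so the values describe these 10 classes only. Cyp26b1 was nearest to Acr (0.99), Exoc3l (0.98), Tgtp1 (0.97), Ckmt2 (0.97) and Upp1 (0.97). Rbp7 was nearest to Inhbb, Ptprq, Chrm2, Btnl9 and Gm39464, all at 1.00, and Stra6 to Usp6nl (0.93), Crnkl1 (0.92), Slco1c1 (0.91), Efhc2 (0.91) and Spock2 (0.90). The genes nearest to Rbp7 had 28.4 to 437 CPM in fenestrated and at most 0.261 CPM in barrier cells. Rbp7 was high in fenestrated cells only, so that class sets its correlations and no co-expression is read from them.

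The second question was whether the members differed between ArcSwe and WT mice. Cyp26b1 was the member with the largest difference. Its mean level in fenestrated cells was 162 CPM in WT and 40.8 CPM in ArcSwe, with the 3 WT mice (93.9 to 253) all above the 3 ArcSwe mice (14.8 to 56.9). Of all genes tested in fenestrated cells 9.13% had genotypes that did not overlap. The fitted log2 difference of ArcSwe over WT was -2.06 ± 0.41 (SE), with an adjusted p of 0.555 by edgeR's quasi-likelihood test with Benjamini-Hochberg adjustment over the 6716 genes tested in this class. Cyp26b1 ranked 2 of 6716 by p, and the difference did not pass the threshold of 0.05.

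Capillary cells, from the same mice, gave the same order for Cyp26b1. WT levels there were 10.8, 8.08 and 18.04 CPM and ArcSwe levels 2.54, 2.83 and 3.69 CPM, again with no overlap, beside 11.4% of all genes tested in capillary cells, on 22 to 211 UMIs per mouse. The log2 difference was -1.97 ± 0.30 (SE), with an adjusted p of 0.828 by edgeR, rank 2 of 12902 genes. The WT mean was above the ArcSwe mean in 8 of 8 capillary clusters, which share these mice, but in 1 of them this rested on WT 3, at 9.85 CPM, since WT 1 and WT 2 were at 0 and the ArcSwe mice at 0.793 to 3.55 CPM. Mice of the genotypes also overlapped in further clusters, as with WT 2 at 1.62 and ArcSwe 2 at 2.80 CPM. In another, WT 2 was at 0.890 and ArcSwe 1 at 1.08 CPM. Overlap was also seen with WT 1 at 0 and ArcSwe 3 at 3.59 CPM in a further cluster. The same held with WT 2 at 2.88 and ArcSwe 1 at 3.27 CPM in a further one. Genotypes stood apart in the remaining clusters, as where the nearest mice were WT 2 at 11.0 and ArcSwe 3 at 9.52 CPM. In 1 of these, WT 3, at 0 CPM, was left out for having under 20 cells. Zone markers in the capillary sums also stood apart by genotype, with the 8 venous markers at 724 to 776 CPM in WT and 848 to 1073 CPM in ArcSwe and the 8 arterial markers at 434 to 468 and 341 to 385 CPM, and their part in the Cyp26b1 difference was not tested. Without the 2 clusters that came mostly from ArcSwe 3 the difference was -1.81 ± 0.32 (adjusted p = 0.908 by edgeR). In barrier cells as a whole the difference was -1.38 ± 0.36 (edgeR, adjusted p = 0.991).

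Venous and arterial cells differed less clearly. Venous levels were 39.2, 17.3 and 44.0 CPM in WT and 10.1, 27.5 and 25.5 CPM in ArcSwe, so the genotypes overlapped, with a log2 difference of -0.82 ± 0.37 and an adjusted p of 1.00 by edgeR. In arterial cells, large arterial included, the difference was -0.62 ± 0.67 and rested on WT 3, since it was 0.28 without that mouse.

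**Figure D3:**
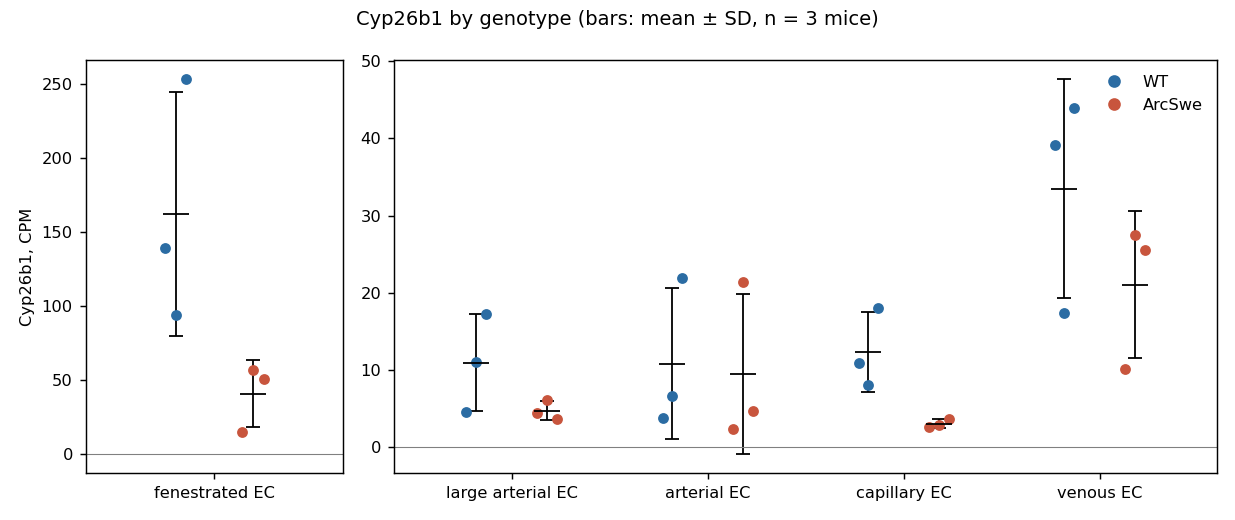
Cyp26b1 level (CPM) in each of the 3 WT and 3 ArcSwe mice, by endothelial class; each point is a mouse and the bars are the mean ± SD of the genotype. Fenestrated cells have an axis of their own. WT and ArcSwe points do not overlap in fenestrated cells (93.9 to 253 against 14.8 to 56.9 CPM) or capillary cells (8.08 to 18.04 against 2.54 to 3.69 CPM), and overlap in venous and arterial cells.

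Whether Cyp26b1 was called depended on the fit. DESeq2 called it in capillary cells (log2 difference -1.98, adjusted p = 2.12e-05), 1 of 15 genes or 0.116% of those tested, but not in fenestrated cells (adjusted p = 0.9998). With the replicate number as a block, edgeR called it in fenestrated cells (-1.99, adjusted p = 0.0124), 1 of 4 genes or 0.0596%, but not in capillary cells (adjusted p = 0.0869). With no filter on low counts edgeR called it in both. It was then 1 of 40 genes called among 15789 in fenestrated cells (adjusted p = 3.19e-13) and 1 of 2 among 21346 in capillary cells (adjusted p = 0.0335). With the filter and no block edgeR called 0 genes in either class, so these calls depend on the filter. Over all alternatives the log2 difference ranged from -2.41 to -1.54 in fenestrated and from -2.18 to -1.54 in capillary cells.

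Exact two-sided permutation tests of the levels gave p = 0.1 for Cyp26b1 in fenestrated, capillary and barrier cells, which is the smallest that 3 against 3 mice allow. Among the 49 member and class pairs compared in this way, others reached the same p. They were Cyp26b1 and Rbp7 in mural cells, Rarb in capillary cells, Rarg in fenestrated cells, and Rxra in arterial cells and microglia. After Benjamini-Hochberg adjustment over the 49 pairs, the permutation p was 0.544 for each of these. By cells, the unthinned share with a Cyp26b1 UMI in fenestrated cells was 40.0%, 31.8% and 46.6% in WT and 6.96%, 31.7% and 12.4% in ArcSwe. Thinned to 1000 UMIs it was 8.33%, 6.60% and 18.4% in WT and 0.649%, 5.17% and 8.04% in ArcSwe. The unthinned shares stood apart only narrowly, at WT 2 and ArcSwe 2, and the thinned shares overlapped.

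Erythroid, microglial and choroid epithelial marker sums in the fenestrated cells overlapped between the genotypes. The 5 erythroid markers summed to 380 to 2770 CPM in WT and 373 to 13584 CPM in ArcSwe, the 8 microglial markers to 124 to 484 and 160 to 623 CPM with Cx3cr1 and Aif1 at 0 by the filter, and the 5 choroid plexus epithelial markers to 155 to 1019 and 215 to 1470 CPM. The 8 fenestrated markers summed to 15713 to 17286 CPM in WT and 13287 to 17146 CPM in ArcSwe. The 4 neuronal markers were low and did not overlap, at 2.63 to 7.69 CPM in WT and 0 to 2.12 CPM in ArcSwe. The part of these markers, and of the vessel bed that the fenestrated cells came from, in the Cyp26b1 difference was not tested.

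Rarg was the other member whose genotypes did not overlap in fenestrated cells, with 142, 129 and 143 CPM in WT and 73.0, 120 and 67.8 CPM in ArcSwe. Its log2 difference was -0.65 ± 0.22 (adjusted p = 0.996 by edgeR). Thus 2 of the 6 members tested in fenestrated cells did not overlap, and Cyp26b1 was the 1 of 6 in barrier cells (10.9% of all genes there) and the 1 of 5 in capillary cells. In microglia, where 16.8% of genes did not overlap, and in arterial cells, where 9.66% did not, the member was Rxra. No member tested by edgeR was apart in venous (8.86%) or mural cells (8.25%). Cyp26b1 and Rbp7, too low in mural cells to pass its filter, were apart there.

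The remaining members gave small or unclear differences. Rbp7 in fenestrated cells differed by -0.18 ± 0.23 and changed sign without WT 2 (to 0.13), Rarb by 0.22 ± 0.40 and Rara by -0.03 ± 0.26, each with an adjusted p of 0.996 or more. Stra6 in capillary cells differed by -0.12 ± 0.21 (adjusted p = 0.980) and changed sign without ArcSwe 3 (to 0.094). In mural cells, where Rarb was among the highest, its difference was 0.04 ± 0.21 (adjusted p = 1.00).

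None of the differences in Rxra passed the threshold. Its microglial levels were 24.7, 28.8 and 32.3 CPM in WT and 16.5, 21.0 and 20.03 CPM in ArcSwe, a log2 difference of -0.51 ± 0.23 (adjusted p = 0.640 by edgeR). In fenestrated cells the difference was -0.40 ± 0.28 (adjusted p = 0.996), whereas in arterial and venous cells the differences were 0.60 ± 0.22 and 0.76 ± 0.35 (adjusted p = 1.00 in both). Stra6 and Rara, both low in microglia, differed there by 0.93 ± 0.64 (adjusted p = 0.720 by edgeR) and 0.99 ± 0.65 (adjusted p = 0.716). The microglial sums were uneven between libraries. Median UMIs per microglial cell were 5954 in WT 1 and 5381 in WT 2, against 1168 to 2003 in the other mice. A microglial cluster came for 90.0% of its cells from WT 3. The part of this unevenness in the microglial differences was not tested.

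**Figure D4:**
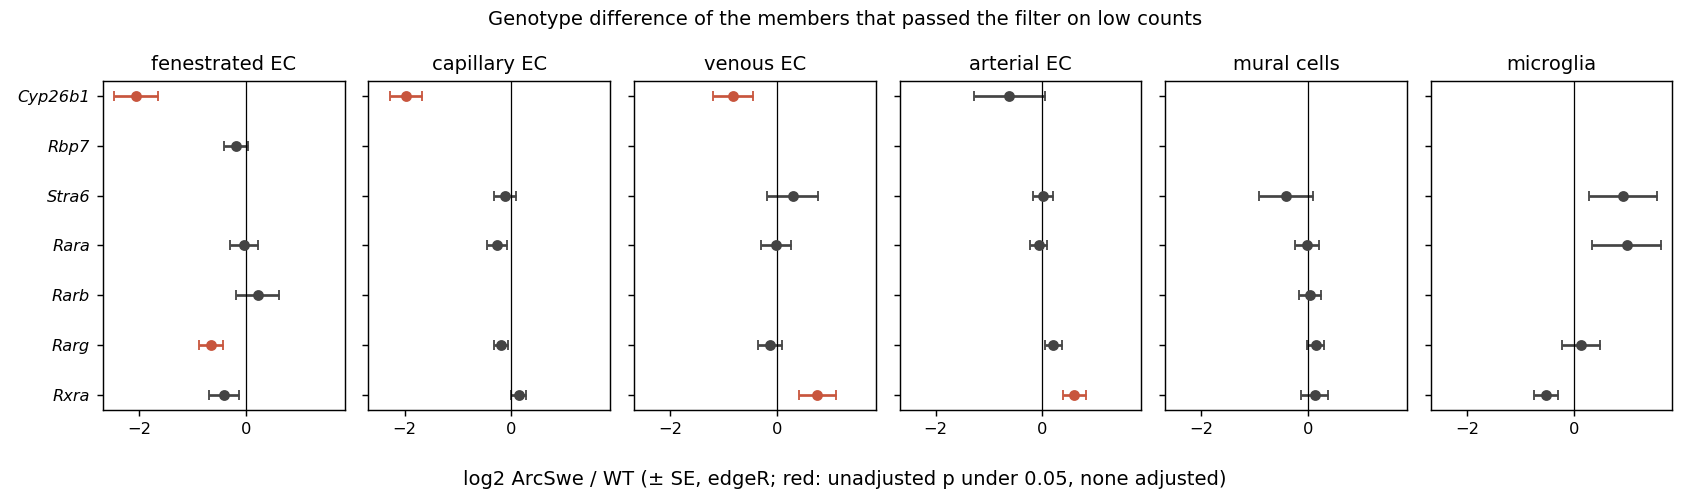
Log2 difference of ArcSwe over WT for each member in each cell class in which it passed the filter on low counts, with bars of 1 SE from edgeR's fit and in red those with an unadjusted p under 0.05. Cyp26b1 is lowest, at -2.06 in fenestrated and -1.97 in capillary cells, and no point passed the adjusted threshold.

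Without a block and with the filter on low counts, edgeR called no member in any class. The background was low: 0 of 13477 genes (0%) were called in barrier cells, 0 of 6716 (0%) in fenestrated, 0 of 12902 (0%) in capillary, 0 of 8664 (0%) in venous and 0 of 11176 (0%) in mural cells, against 592, 286, 616, 326 and 309 genes at an unadjusted p under 0.05. DESeq2 called 13, 0, 15, 1 and 0 genes there. In arterial cells 1 of 10942 genes (0.00914%) and in microglia 4 of 11520 (0.0347%) were called by edgeR, and none was in the list of 46.

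At an unadjusted p under 0.05 by edgeR, 2 of 18 list genes tested in fenestrated cells were lower in ArcSwe, Cyp26b1 and Rarg, and 0 were higher. Of all genes tested there, 286 of 6716 passed this limit in either direction. In barrier cells the count was 3 of 31, with Cyp26b1 lower and Rxra and Adh1 higher, beside 592 of all 13477 genes. The list was chosen with earlier results known, so nothing is read from these counts. The median log2 difference of the list was -0.06 in fenestrated and -0.05 in barrier cells.

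The difference between fenestrated and barrier cells in the genotype effect was tested with each mouse as a block. Of 12623 genes, 2 (0.0158%) were called, neither from the list. Cyp26b1 had an interaction of -0.67 ± 0.28 and Rarg of -0.58 ± 0.19 on the log2 scale, both lower in ArcSwe by more in fenestrated cells, with adjusted p-values of 1.00 by edgeR, so a genotype effect particular to fenestrated cells was not detected for either gene.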

How the data were processed

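The deposited values were raw UMI counts per gene and cell, which per the labels the authors made with Cell Ranger 7.0.0 on mm10, to which their methods added sequences; 1 library per mouse, none pooled. From these counts cells with 500 to 4500 genes and under 10% mitochondrial UMIs were kept, clustered with scanpy 1.11.5 (2000 variable genes, 30 components, resolution 1) and named from marker lists, so names are rebuilt here and may differ from the study's. Endothelial cells in which the microglial genes Cx3cr1 or Aif1 were detected (5344 barrier, 173 fenestrated) were removed. The study's methods describe this cell by cell for barrier cells and by subcluster for fenestrated cells. Scrublet marked 103 of 44112 cells (0.233%), too few to have worked, so doublets were kept. No erythroid class could be named. Counts were summed per mouse and class (at least 20 cells). Genotypes were compared by edgeR 4.0.16 (TMM, filterByExpr, quasi-likelihood test), with 2849 ribosomal protein, mitochondrial, pseudogene and Rik genes left out, and by DESeq2 1.42.0 as an alternative. On simulated data, edgeR called 51% of genes changed 2-fold and 98% of those changed 4-fold in fenestrated cells. The simulation gave genes the spread of the fitted trend and none of their own, and it planted changed genes. These rates may therefore be too high for the real data. Mean over mice ± SD is given for levels. Genes named are the members, list genes that met the count rule, had their highest class mean at 10 CPM or more or were called, and the 5 best-correlated genes. Some genes of the list are not reported here. The members, the list and the alternatives were chosen with earlier results of these data known, and 2 alternatives on clusters and Scrublet scores and 1 on the pseudocount were added after seeing the data. Intervals and floors cover counting error only.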

Additional observations from a re-analysis of the deposited data

Results flagged for a closer look

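Stra6 in fenestrated cells of ArcSwe 2 stood apart from the other mice. Its log2 ratio of fenestrated over barrier level was -6.70 there against -3.83 to -2.86 in the other 5 mice, but it rests on 0 UMIs in 60 cells and on the pseudocount. With the fenestrated level at 3 UMIs the ratio would be -3.87, next to the other mice, so the gap is not a measured one. Ratios in 7 groups of 6 mice were looked at. By chance the limit used for flagging is passed in about 1 group of 20 where ratios are normally spread. A ratio set by a count of 0 does not meet that condition.

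Rarb reached 137 CPM (95% Poisson interval 105 to 174, counting error only) in a cluster of 100 cells with pericyte and fibroblast markers that was given no name and enters no comparison. All 6 mice contributed, with 65 UMIs in all, and the highest level of Rarb in any mouse of a named class was 73.4 CPM, in pericytes.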

How the results depend on the processing

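Of 346 alternatives for the genotype differences of the members printed in the report 330 kept direction and side of the threshold, 4 were newly called (Cyp26b1, in the report) and 12 changed sign, 11 by leaving out 1 mouse and 1 by stricter cell filters (Rarb in mural cells, -0.012). Without 1 mouse, Stra6 in barrier cells ranged from -0.37 to 0.12, Rarg in barrier cells from -0.23 to 0.016, Rbp7 in fenestrated cells from -0.41 to 0.13, Rara there from -0.25 to 0.13, Rarb there from -0.052 to 0.55, Stra6 in capillary cells from -0.37 to 0.094, Rarb in mural cells from -0.16 to 0.18 and Cyp26b1 in arterial cells from -1.50 to 0.28. Genes called in barrier cells were 13 with DESeq2. In fenestrated cells they were 40 with no filter on low counts, 4 with the replicate number as a block, 1 without the highest Scrublet scores and 0 to 1 without 1 mouse. In arterial cells they were 99 with no filter, 7 with the replicate block, 11 with DESeq2, 0 with stricter cell filters, 0 at resolution 2 and 0 to 1 without 1 mouse. In capillary cells they were 2 with no filter and 15 with DESeq2. In venous cells they were 36 with no filter, 2 with the block, 1 with DESeq2 and 0 to 1 without 1 mouse, and in mural cells 8 with no filter. In microglia they were 104 with no filter, 64 with the block, 107 with DESeq2, 37 with stricter cell filters and 0 to 45 without 1 mouse. For the genotype effect between classes they were 18 with no filter, 1 with Cx3cr1 or Aif1 cells kept and 1 to 56 without 1 mouse. The cause was not tested. The labels give the replicate numbers no meaning beyond naming animals. Same-numbered mice correlated at 0.08, 0.16 and 0.36 in barrier cells, and WT 1 correlated better with ArcSwe 2 (0.27). WT 3 and ArcSwe 3, the pair at 0.36, also had the lowest median UMIs per cell (3271.5 and 2922). Whether same-numbered mice shared a batch cannot be told, so the block rests on a shared number only. The share of fenestrated cells with a Cyp26b1 UMI was 14.7% thinned to 2000 UMIs and 28.2% unthinned. Of 98 alternatives for the ratios of fenestrated over barrier 2 moved (Rbp7 to 10.91 and Rarb to 4.57 with a pseudocount of 0.1 CPM) and 0 changed sign, while Rara fell under the limit of 1 in 5 of its 14. The genes were called on 60 to 158 fenestrated cells per mouse, which limits precision.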

Other observations

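Choroid plexus epithelial cells, 90 in all and 4 to 20 per mouse, were too few to compare between mice. Pooled, they held Stra6 at 59.7 CPM (45 UMIs, found in 5 of 6 mice), Rara at 15.9 CPM and no Rbp7 UMI, which allows up to 3.98 CPM at 3 UMIs.

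The unnamed cluster of 100 cells with pericyte and fibroblast markers that held Rarb at 137 CPM also held Aldh1a1, a retinaldehyde dehydrogenase, at 132 CPM (63 UMIs, all 6 mice), while Stra6 was not found. Its 32 Cyp26b1 UMIs all came from 1 mouse, and so did its 12 Rbp7 UMIs.

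A cluster of 73 cells with both fenestrated and microglial markers, 44 of them from 1 mouse, held Rbp7 at 321 CPM, Cyp26b1 at 66.5 CPM, Rarg at 66.5 CPM and no Rarb UMI. A cluster of 279 macrophage or granulocyte cells held Rara at 76.7 CPM (109 UMIs, 5 mice), above the 2.90 CPM of microglia, and 1 UMI of Cyp26b1.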
